A study of Mus musculus with 12 samples.

Results

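The comparison described here set mouse embryonic stem cells measured 10 days after auxin withdrawal against DMSO controls, and it covers all 18712 genes with values at that time, 1 transcript per gene. All 4 groups of the study, 3 libraries each, came from E14-mESC cells of the genotype RACK1-AID/RPS26-Tir1 Ribo-Tweezer. In this line RACK1 carries the auxin-inducible degron AID, and the auxin receptor TIR1 is fused to the ribosomal protein RPS26, so that auxin (IAA) directs TIR1 on the ribosome to RACK1 beside it. Both arms carried both fusions. Cells of one arm had received IAA for 5 days and were then grown without it for 10 days, and the other arm is labelled as the DMSO control of that withdrawal. A separate pair of groups, 5 days of IAA and 5 days of DMSO, gave the earlier change with which it is compared. The labels name no clone. They number the replicates without saying that each was grown apart, so a p-value here covers the spread among libraries, which may be technical only.

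RACK1 is a scaffold protein on the head of the small ribosomal subunit, where it binds signalling kinases and takes part in the quality control of stalled and collided ribosomes. The degron acts on the protein, so the RNA of Rack1 does not show whether the protein was lost or had returned. Mouse embryonic stem cells in culture move between a naive state, marked by genes such as Nanog, Tfcp2l1 and Tbx3, and a formative state on the way to lineage commitment, marked by Otx2, Pou3f1 and Fgf5. Poly(A) RNA reports transcript abundance and says nothing directly of translation.

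Every fold below is on the log2 scale, read as withdrawn or IAA-treated cells over DMSO cells, a direction that the file headers do not state. The mean level at 10 days minus that at 5 days had a slope of -0.54 on the 5-day fold over the genes called there, where this reading gives -0.5 and the reverse 0.5. Its slope on the 10-day fold was 0.15 over those same genes, 0.08 over all genes and 0.80 over genes with a mean log2 CPM of 3 or more, where 0.5 was looked for, so the sign at 10 days rests on a looser match than at 5 days. Neither table holds values of single libraries. The standard error (SE) beside a fold is therefore the fold divided by the moderated t of the authors' deposited table, and group levels are the deposited mean log2 CPM plus or minus 0.5 of the fold. The geometric mean depth implied by the rarest genes was 21.2M reads in the 10-day libraries and 23.3M in the 5-day libraries, and the depth of single libraries is unknown.

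Stem cell markers were abundant in both arms at 10 days. The level of Pou5f1, the core pluripotency factor, was 10.1 log2 CPM in withdrawn and in DMSO cells alike, and that of Sox2, its partner, 8.71 in both. Of 25 measured markers of fibroblast feeder cells, 10 had a mean level below 0 log2 CPM at 10 days and 14 one of 1 or more. Col3a1, a fibrillar collagen, stood at -3.65 log2 CPM in withdrawn and -3.75 in DMSO cells, and Lum, Postn and Col6a3 were not among the genes of the 10-day table. The best measured of the list were Fn1, at a mean of 10.2 log2 CPM, and Vim, at 7.41. In bulk RNA, fewer cells of a type and less RNA per cell cannot be told apart.

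No gene was called at 10 days. Of 18712 genes, 0 had a Benjamini-Hochberg (BH) adjusted p under 0.05 (limma, 0% called), and the smallest adjusted p in the authors' deposited table was 0.822. At 5 days the same rule called 4789 of 18765 genes (25.5%). Unadjusted p-values under 0.05 numbered 805 at 10 days (4.30%), of which 452 were higher (2.42%) and 353 lower (1.89%), while uniform p-values would give 5%. The t statistics had a standard deviation of 1.09, close to the 1.07 of a t distribution with the 15.2 degrees of freedom they carry. At 5 days it was 2.97.

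Folds at 10 days were small wherever the transcript was well measured. Among genes with a mean log2 CPM of 3 or more, 17 of 9509 (0.179%) differed by 0.5 or more in either direction, against 853 of 9429 (9.05%) at 5 days. Among the 5698 genes at 5 log2 CPM or more, the largest 10-day fold in the authors' deposited table was 0.52, that of mt-Atp8, a subunit of ATP synthase encoded in the mitochondrial genome. The 95% interval of the fold lay inside ±0.5, a linear fold of 1.41, for 95.2% of these genes, for 76.0% of genes between 3 and 5 log2 CPM, for 10.2% between 0 and 3, and for none of the 5846 genes below 0. The median half-width of the interval was 0.22 in the first of these classes and 1.88 in the last.

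**Figure D1:**
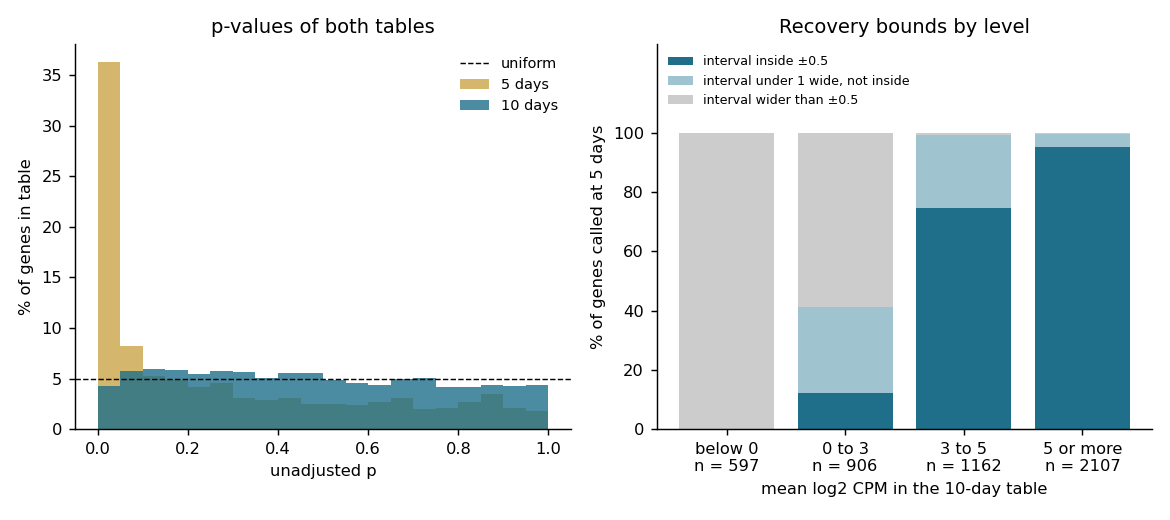
Left, the share of genes (%) in each interval of unadjusted p for both tables, with a dashed line at the 5% of a uniform distribution: 36.3% of 5-day p-values and 4.30% of 10-day p-values lie under 0.05. Right, the genes called at 5 days by mean log2 CPM at 10 days, as the share (%) whose 95% interval at 10 days lies inside ±0.5, is narrow enough but not inside, or is wider than that range; the first share is 0% below 0 and 95.2% at 5 or more.

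The precision at 10 days would have allowed many calls. Had each gene kept its 5-day fold, the standard errors of the 10-day comparison would have given 2074 calls among the 18120 genes in both tables, 1976 of them among the 4772 genes called at 5 days and measured at 10 days (41.4%). Had each kept 0.5 of its 5-day fold, they would have given 33. At this precision calls could show persistence of the whole change, and hardly of 0.5 of it.

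The 10-day fold was bounded gene by gene with intervals. Of the 4772 genes called at 5 days, 2983 (62.5%) had a 95% interval inside ±0.5 at 10 days, where 47.8% of all genes in both tables did. That range bounds the size of the fold at 10 days and does not by itself show a return, since 2557 of the 4772 (53.6%) had a 5-day fold inside ±0.5 already. Of the 2215 with a larger 5-day fold 694 were bounded (31.3%), and of the 1019 with a 5-day fold of 1 or more 99 were (9.72%). Genes that had fallen were bounded more often, 1809 of 2264 (79.9%), than genes that had risen, 1174 of 2508 (46.8%). The median SE at 10 days was 0.11 for the former and 0.17 for the latter. Of the 1789 genes not bounded, 1140 had intervals too wide to fit the range at any fold. The other 649 had narrow enough intervals that reached past the range, and such an interval can still include 0. By level the bounded share ran from 0 of 597 below 0 log2 CPM, through 111 of 906 and 866 of 1162 in the middle classes, to 2006 of 2107 at 5 or more.

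Set against the size of the earlier change, the interval excluded 0.5 of the 5-day fold for 1303 genes (27.3%) and the whole 5-day fold for 3185 (66.7%). For 3460 genes it held 0.5 of the 5-day fold. It lay wholly beyond 0.5 of the 5-day fold for 9 genes (0.189%), and these choices rest on the 10-day values themselves, so the 9 are given as a description. The median size of the fold fell from 0.46 at 5 days to 0.12 at 10 days over the 4772 genes, and the median ratio of the folds was 0.10. These genes were chosen by their 5-day p-values, which favours large 5-day folds. Over all genes of each time the median size was 0.27 at 5 days and 0.15 at 10 days.

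The change itself differed between the times for 1887 of 18120 genes (10.4%) by a two-sided z test of the difference of the folds, BH adjusted over all of them. For 878 genes (4.85%) the 10-day fold was the higher and for 1009 (5.57%) the lower. Genes called at 5 days made up 1685 of these. With a t in place of the z, 1257 of the 1887 remained.

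**Figure D2:**
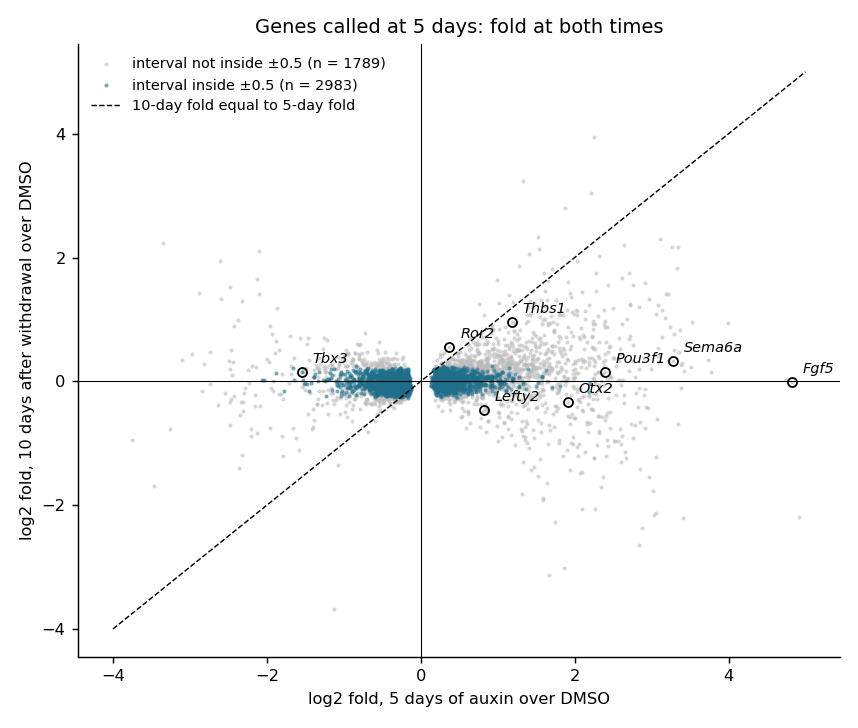
Each point is 1 of the 4772 genes called at 5 days, with its log2 fold at 5 days on the horizontal axis and at 10 days on the vertical axis. The 2983 genes with a 95% interval inside ±0.5 (dark) form a flat band around 0 at 10 days, as that choice requires. Of these, 2289 had a 5-day fold inside ±0.5 too and lie near the crossing with the dashed line of equal folds. Grey points are the 1789 genes not bounded, 1140 with intervals too wide for the range and 649 with narrower intervals that reach past it.

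The genes that had fallen furthest were back within narrow bounds. For all 10 of the largest falls the 10-day interval lay inside ±0.5, the lowest bound being -0.44 and the highest 0.45. Inhbb, a subunit of activin and inhibin, had fallen by 1.89 ± 0.14 (SE) at 5 days and differed by 0.14 ± 0.13 at 10 days in the authors' deposited tables. Its level at 10 days was 5.68 log2 CPM in withdrawn and 5.54 in DMSO cells. Tbx3, a transcription factor of the naive state, had a fold of -1.55 ± 0.19 and then 0.15 ± 0.09 in the authors' deposited tables, with levels of 6.89 and 6.74 log2 CPM at 10 days. Slc11a1, a metal ion transporter of phagocytic cells, went from -2.07 ± 0.35 to 0.02 ± 0.16 in the authors' deposited tables.

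Of the other falls in that set, Lgals3, the secreted galectin-3, stood at -1.52 ± 0.11 and then -0.04 ± 0.15 in the authors' deposited tables. Mras, a RAS-related GTPase, stood at -1.53 ± 0.08 and then 0.02 ± 0.14 there. Mapt, which encodes the microtubule protein tau, stood at -1.64 ± 0.31 and then 0.02 ± 0.19 there. Serpinb6c, Sept1, Gna14 and Myo1f completed the set with 10-day folds between -0.15 and 0.21 in the authors' deposited table. For each of the 10 the difference between the times passed the z test. The 10 were chosen by the folds of the earlier time, which the test uses again, so its outcome is only a description.

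The genes that had risen furthest could be bounded less tightly, since 8 of the 9 described had a mean level under 1 log2 CPM at 10 days. The difference between the times passed the test for 8 of the 9, which were chosen by the 5-day folds that the test uses again. None had a 10-day interval inside ±0.5. Fgf5, a growth factor of the formative state, had risen by 4.82 ± 0.59 and had a 10-day fold of -0.01 ± 1.14 in the authors' deposited tables. Its level was near -3.35 log2 CPM in both arms at 10 days, while in the separately normalized 5-day table it was -1.22 in DMSO and 3.60 in IAA, so the 10-day interval reached from -2.43 to 2.41.

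Pou3f1, a POU-domain factor of the formative and neural states, was the best measured of these. It had a fold of 2.39 ± 0.13 and then 0.16 ± 0.16 in the authors' deposited tables, with an interval from -0.20 to 0.51. Its levels at 10 days were 2.92 log2 CPM in withdrawn and 2.77 in DMSO cells, both below the 5.22 of DMSO cells in the 5-day table. Sema6a, a transmembrane semaphorin that guides axons, had a fold of 3.28 ± 0.28 and then 0.33 ± 0.37 in the authors' deposited tables. Car4, a membrane-bound carbonic anhydrase, had a fold of 2.92 ± 0.18 and then -0.12 ± 0.37 there.

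Kcnj3 and Psmb8 had the highest 10-day folds of the set. Kcnj3, a potassium channel subunit, had a fold of 2.38 ± 0.24 and then 0.93 ± 0.42 in the authors' deposited tables, and its interval began at 0.04. With a t in place of the z its difference between the times did not pass (adjusted p = 0.072). Psmb8, an interferon-inducible subunit of the immunoproteasome, had a fold of 2.39 ± 0.24 and then 0.97 ± 0.52 there, and the difference between its folds did not pass the test (adjusted p = 0.091, difference -1.42 ± 0.57).

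**Figure D3:**
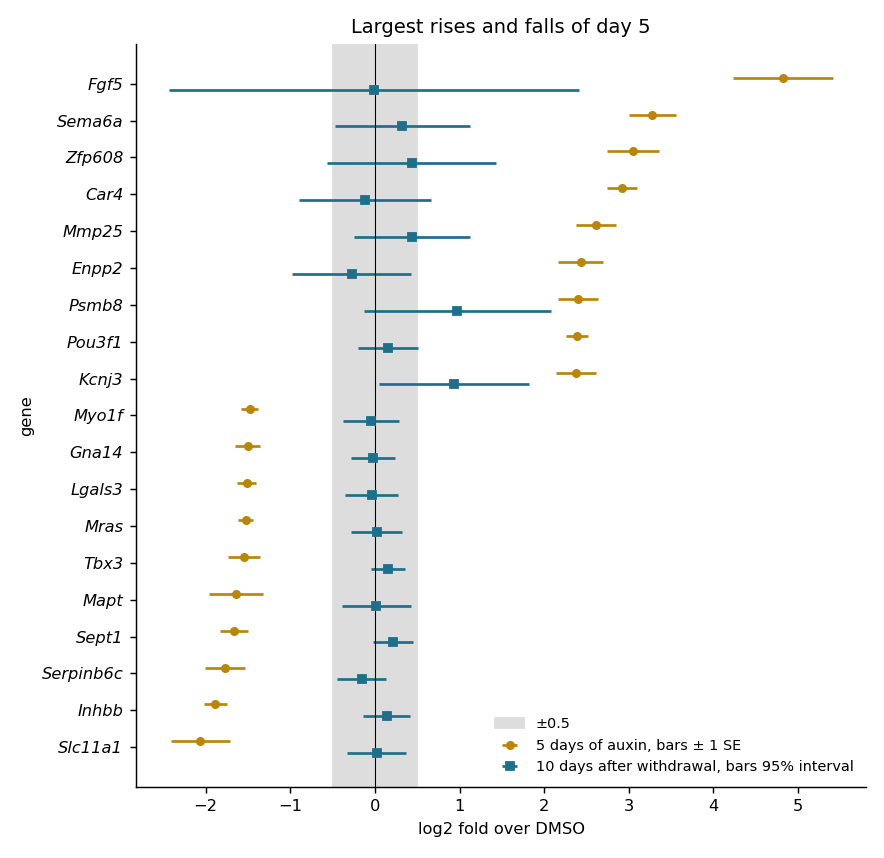
Log2 fold of 9 of the largest rises and the 10 largest falls of day 5, at 5 days (circles, bars ± 1 SE) and at 10 days (squares, bars 95% interval), with the range ±0.5 shaded. All 10 falls have 10-day intervals inside the shaded range, and no rise plotted has.

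Most naive pluripotency genes that had changed at 5 days were bounded near the level of the controls at 10 days. At 5 days 25 of 28 members of this list were called lower, against 12.1% of all genes, and 1 higher. At 10 days 0 of 28 were called and the median fold was 0.01. Of the 26 genes called at 5 days 24 were bounded inside ±0.5, against 62.5% of all called genes, 4 of the 26 having been inside before. For 17 of the 26 the interval excluded 0.5 of the 5-day fold, and for 23 of 28 the 10-day fold was higher than the 5-day fold by the z test, against 4.85% of all genes.

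Nanog, a central factor of the naive state, had a fold of -0.74 ± 0.06 and then -0.12 ± 0.09 in the authors' deposited tables. Tfcp2l1, a transcription factor that maintains that state, had a fold of -1.13 ± 0.08 and then 0.20 ± 0.12 there. Jam2, an adhesion molecule, had a fold of -1.05 ± 0.08 and then 0.12 ± 0.10 there. The intervals at 10 days reached from -0.31 to 0.07 for Nanog and from -0.06 to 0.46 for Tfcp2l1. The list members called at 5 days and not bounded, named after their values were seen, were Lifr, the receptor of LIF, and Dppa3, a maternal factor of early embryos.

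Formative and primed genes were also without calls. Of 24 measured, 17 had been called higher, against 13.5% of all genes, and 2 lower at 5 days, and 0 were called at 10 days, where the median fold was -0.02. Of the 19, 14 were bounded inside ±0.5, 4 of the 19 having been inside before. The share was 62.5% over all called genes and 74.5% between 3 and 5 log2 CPM, where the list median of 4.49 lay. By the z test 15 of 24 members had a lower fold at 10 than at 5 days, against 5.57% of all genes. Otx2, a homeobox factor that drives the formative state, had a fold of 1.91 ± 0.10 and then -0.33 ± 0.22 in the authors' deposited tables, with an interval from -0.79 to 0.13. Cldn6, a tight-junction claudin, had a fold of 1.71 ± 0.08 and then -0.09 ± 0.13 there and was bounded. The summed level of the list in DMSO cells was 2394 CPM at 5 days and 1314 CPM at 10 days, normalized separately. The folds at 5 and 10 days therefore stand on different control levels.

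Genes of other responses seen at 5 days also had no call at 10 days. Among p53 targets 18 of 36 had been called higher and 2 lower, against 13.5% and 12.1% of all genes. At 10 days 17 of those 20 were bounded, 7 of the 20 having been inside ±0.5 before. The share was 62.5% over all called genes and 74.5% between 3 and 5 log2 CPM, where the list median of 4.66 lay. By the z test 12 of 36 had a lower fold than at 5 days, against 5.57% of all genes, and for 10 of the 20 the interval excluded 0.5 of the 5-day fold. Phlda3, a p53 target that restrains AKT, had a fold of 1.33 ± 0.08 and then -0.04 ± 0.13 in the authors' deposited tables. Trp53inp1, a stress protein induced by p53, had a fold of 0.87 ± 0.07 and then 0.05 ± 0.12 there. Plk2, a polo-like kinase, had a fold of 1.30 ± 0.11 and then 0.21 ± 0.15 there.

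In the interferon and MHC class I list 8 of the 15 genes called at 5 days were bounded, against 62.5% of all called genes, and the interval of 7 excluded 0.5 of the 5-day fold. By the z test 10 of 25 had a lower fold at 10 days, against 5.57% of all genes. Irf1, an interferon-induced transcription factor, had a fold of 1.02 ± 0.08 and then 0.09 ± 0.13 in the authors' deposited tables. Bst2, the antiviral protein tetherin, had a fold of 0.82 ± 0.07 and then 0.08 ± 0.10 there. Tap1, the peptide transporter of antigen presentation, had a fold of 1.87 ± 0.16 and then 0.08 ± 0.26 there, with an interval too wide to be bounded.

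The 2-cell-like list was bounded less, being of rare transcripts. Of 22 members, 9 had been called lower at 5 days, against 12.1% of all genes. At 10 days 3 of these 9 were bounded, against 62.5% of all called genes. By the z test 5 of the 22 had a higher fold than at 5 days, against 4.85% of all genes. All 3 members named by rule, Zscan4f, Zscan4a and Zscan4c, belong to 1 family of near-identical zinc-finger genes whose reads the authors' counting may have split in an unknown way. Their folds at 10 days lay between -0.08 and 0.01 in the authors' deposited table, after -0.94, -0.91 and -0.76 at 5 days.

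Among Nodal and BMP targets the folds of Lefty2 had opposite signs at 5 and 10 days. Lefty2, a secreted inhibitor of Nodal and a target of it, had a fold of 0.82 ± 0.07 at 5 days and of -0.46 ± 0.12 at 10 days in the authors' deposited tables, a difference of -1.29 ± 0.14 (adjusted p = 4.5e-16). Its level at 10 days was 5.82 log2 CPM in withdrawn and 6.29 in DMSO cells. The 10-day fold alone was not called (adjusted p = 0.901 in the authors' deposited table, unadjusted 0.00205). Lefty2 was also among the genes chosen for small 10-day p-values. Lefty1, its neighbour and paralogue, had a fold of 1.26 ± 0.06 and then -0.28 ± 0.16 there, and Nodal itself, named after its values were seen, 0.54 ± 0.06 and then -0.11 ± 0.13. Of the 11 list members called at 5 days, 6 were bounded, against 62.5% of all called genes.

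In other lists most folds lay below 0 at both times; no list was tested as a list. In the ATF4 list, genes of the integrated stress response and amino acid supply, 32 of 40 folds lay below 0 at 10 days. Their median was -0.10 beside a median SE of 0.11. At 5 days 23 had been called lower and 3 higher, against 12.1% and 13.5% of all genes. None was called at 10 days, and 21 of the 26 called at 5 days were bounded. The share was 62.5% over all called genes and 95.2% over those at 5 log2 CPM or more, with a list median level of 6.58. Of the 26, 14 had been inside ±0.5 before, and the interval of 5 excluded 0.5 of the 5-day fold. Slc7a1, a transporter of cationic amino acids, had a fold of -0.68 ± 0.06 and then 0.11 ± 0.12 in the authors' deposited tables. Cth, an enzyme of cysteine synthesis, had a fold of -0.71 ± 0.07 and then -0.28 ± 0.13 there, and Psat1, an enzyme of serine synthesis, -0.42 ± 0.04 and then -0.18 ± 0.10. Genes of DNA replication and the G1/S transition had a median of -0.07 beside a median SE of 0.09, with 39 of 46 below 0. The median level of that list was 6.98 log2 CPM. All 29 called at 5 days were bounded, against 62.5% of all called genes and 95.2% of those at 5 log2 CPM or more. Of the 29, 28 had been inside ±0.5 at 5 days too. The interval of 4 excluded 0.5 of the 5-day fold. In that list Ccnd3, a D-type cyclin, had a fold of -0.57 ± 0.06 and then 0.03 ± 0.08 in the authors' deposited tables.

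Ribosomal protein and respiratory chain genes had folds mostly below 0 at both times. At 10 days the medians of the ribosomal lists were near 0 once trends on length, GC and mean level were removed. They were then 0.04 and 0.05, beside median SEs of 0.11 in both lists. At 10 days the folds of 32 of 33 small-subunit and 44 of 47 large-subunit ribosomal protein genes lay below 0, with medians of -0.15 and -0.16, where over all genes 9349 of 18712 lay below 0 with a median of 0.00. At 5 days the medians were -0.20 and -0.22. No gene of either list was called at 10 days and none differed between the times by the z test, and for 0 of the 23 and 0 of the 39 called at 5 days did the interval exclude 0.5 of the 5-day fold. Rps20, a protein of the small subunit, had a fold of -0.29 ± 0.05 and then -0.24 ± 0.11 in the authors' deposited tables, and Rpl27a, of the large subunit, -0.33 ± 0.05 and then -0.18 ± 0.11.

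Nuclear genes of oxidative phosphorylation had a median of -0.16 at 10 days (74 of 76 below 0) and -0.31 at 5 days, and 9 of 76 had a higher fold at 10 days by the z test, against 4.85% of all genes. Atp5g1, of the ATP synthase ring, had a fold of -0.56 ± 0.06 and then -0.07 ± 0.12 in the authors' deposited tables, and Sdhb, of complex II, -0.47 ± 0.05 and then -0.21 ± 0.11. The proteasome list stood at a median of -0.15 (31 of 32 below 0) and mitochondrial ribosomal proteins at -0.13 (68 of 77 below 0). These are lists of short transcripts: the median length was 774 and 835 nt in the ribosomal lists and 870 nt in the respiratory list, against 2746.5 nt over all genes. The value of the length and GC trend described below for such transcripts was -0.13, -0.13 and -0.12, and with that trend removed the medians were -0.02, -0.03 and -0.03. With mean level removed as well they were 0.04, 0.05 and -0.00. The proteasome and mitochondrial ribosomal medians kept more of their size, at -0.08 and -0.07 with the length and GC trend removed and -0.04 and -0.05 with mean level removed as well.

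The 13 mRNAs of the mitochondrial genome, also short at a median of 784 nt, lay on the other side. Their median fold was 0.17 at 10 days, with 12 of 13 above 0 and none called, and -0.26 at 5 days, with 10 called lower, against 12.1% of all genes. The 10-day median was 0.32 with the length and GC trend removed and 0.41 with mean level removed as well. Among the 13, 5 had a higher fold at 10 days by the z test, against 4.85% of all genes. mt-Nd3, a subunit of complex I, had a fold of -0.47 ± 0.06 and then 0.15 ± 0.19 in the authors' deposited tables, a difference that did not pass with a t in place of the z (adjusted p = 0.067), and mt-Cytb, of complex III, had -0.40 ± 0.03 and then 0.12 ± 0.20. The 13 are cut from 2 polycistronic transcripts and share their source, so they are not independent.

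**Figure D4:**
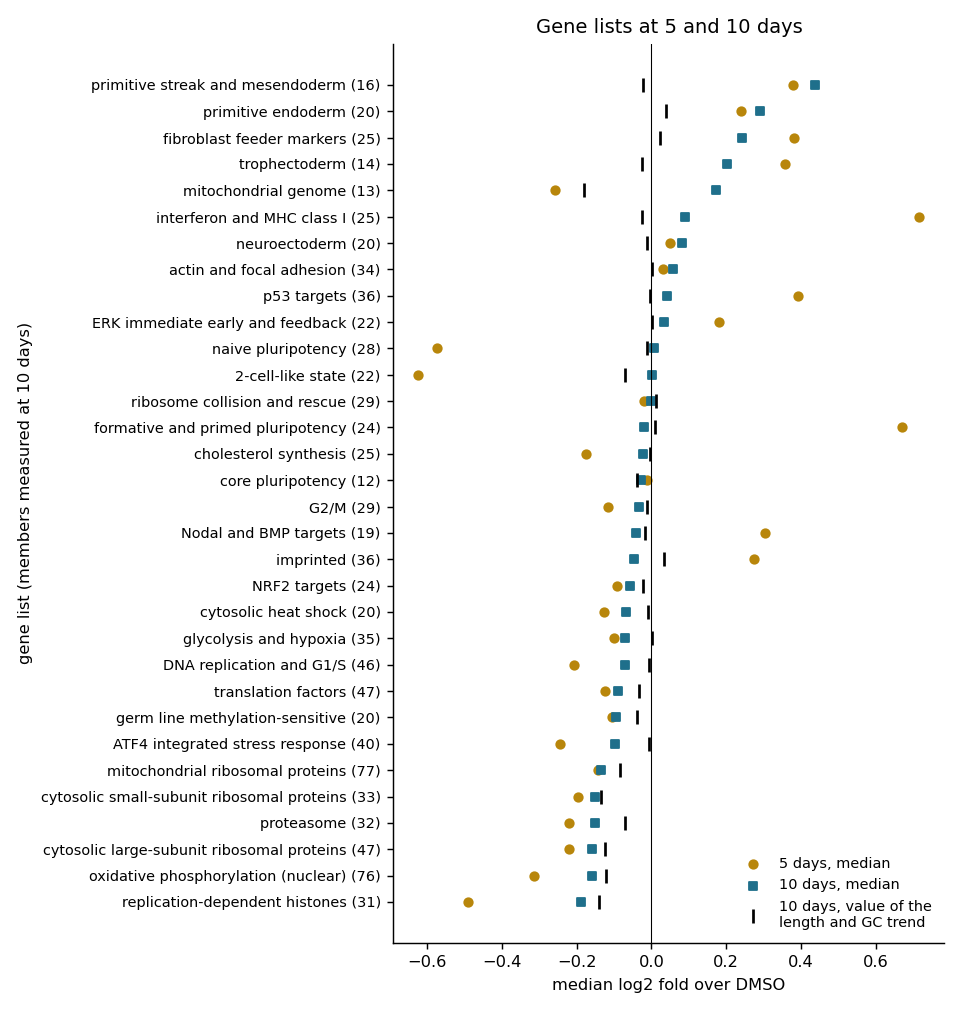
Median log2 fold of the members of each gene list at 5 days (circles) and 10 days (squares), with the median value of the 10-day length and GC trend for the same members (ticks). The 10-day medians lie near 0 for naive (0.01) and formative genes (-0.02), whose 5-day medians were -0.57 and 0.67, and close to the ticks for ribosomal proteins.

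The targeted genes themselves were close to the control. Rack1 (chromosome 11, 48800360 to 48806434, plus strand, 8 exons) had a fold of -0.06 ± 0.09 at 10 days (unadjusted p = 0.52) and of -0.17 ± 0.04 at 5 days in the authors' deposited tables. Rps26, which carries TIR1, had a fold of -0.22 ± 0.11 at 10 days (unadjusted p = 0.0584) in the authors' deposited table. With the length and GC trend removed these were 0.01 and -0.05, and with the mean level removed as well 0.10 and 0.02. Coordinates are those of the matching transcript in GENCODE M21 on GRCm38.

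The 10 residual shifts with the smallest p-values at 10 days were 7 higher and 3 lower. The rule took genes with a mean level of 1 or more and left out predicted-gene and clone names. Among those left out was Gm49394, with a 10-day fold of 1.25. None of the 10 passed the correction, and the adjusted p of each was 0.901 in the authors' deposited table. Thbs1, the matrix protein thrombospondin 1, had a fold of 0.95 ± 0.23 at 10 days and 1.18 ± 0.24 at 5 days in the authors' deposited tables, with levels of 3.34 log2 CPM in withdrawn and 2.38 in DMSO cells. Insr, the insulin receptor, had 10-day and 5-day folds of 0.53 ± 0.14 and 0.66 ± 0.10 there. Peg10, an imprinted gene of retroviral origin, had 0.45 ± 0.12 and 0.83 ± 0.10, and Ror2, a receptor of Wnt5a, 0.56 ± 0.15 and 0.37 ± 0.11. For these 4 genes the difference between the times did not pass the test.

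The other genes of that rule had no call at 5 days, apart from Lefty2. Pcdhgc3, a clustered protocadherin, had a fold of 0.66 ± 0.17 at 10 days and -0.03 ± 0.10 at 5 days in the authors' deposited tables, and its locus shares exons with the rest of its cluster. Nol4l had 0.55 ± 0.16 and -0.15 ± 0.12, and Zfp87, a zinc-finger gene, -0.50 ± 0.14 and 0.17 ± 0.12 there. Efhc2, an EF-hand protein, had -0.82 ± 0.20 and -0.35 ± 0.26. Acta2, smooth muscle actin, had 0.94 ± 0.27 and -0.00 ± 0.15 in the authors' deposited tables. The difference between the times passed the test for Pcdhgc3, Nol4l, Zfp87 and Acta2 and not for Efhc2. With a t in place of the z that of Acta2 did not pass (adjusted p = 0.067). These genes were chosen by their 10-day p-values, and the test uses the same 10-day folds again, so its outcome is only a description.

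Of the 9 genes whose interval lay beyond 0.5 of the 5-day fold, 3 had a mean level of 1 or more at 10 days. Besides Ror2 these were Ripor1, with 0.44 ± 0.13 at 10 and 0.25 ± 0.08 at 5 days in the authors' deposited tables, and the predicted gene Gm49394. The rest, named after their values were seen, were Cldn1, Amer2, 5930430L01Rik, Hist1h2af, Fstl4 and Tspan18.

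Acta2 is also a member of the fibroblast feeder list, genes of mesenchymal and matrix-producing cells. Of 25 members measured, 17 had a fold above 0 at 10 days and 6 an unadjusted p under 0.05, all higher, where 2.42% of all genes did; 0 were called. Besides Acta2 the 6 were Col1a1, Col1a2 and Col6a1, which encode collagen chains, Fn1, which encodes fibronectin, and Tagln, an actin-binding protein. Folds lay below 0 for 8 of the 25, among them the collagen genes Col5a2 at -1.34 ± 0.68 and Col6a2 at -0.68 ± 0.47. Col1a2, Col6a1, Col5a2 and Col6a2 all had mean levels below 0 log2 CPM. Col1a1 had a fold of 0.88 ± 0.33 and Fn1 of 0.30 ± 0.12 in the authors' deposited table. The summed level of the list was 1561 CPM in withdrawn and 1326 CPM in DMSO cells, most of it Fn1. Fn1 stood at 10.3 log2 CPM in withdrawn and 10.0 in DMSO cells, and its rise alone was about as large as that of the sum. The part of the list in the shifts of Acta2 and Thbs1 was not tested. Vim, Mmp2 and Ctgf, the list members with the largest 5-day statistics, had 10-day folds between -0.14 and 0.13 in the authors' deposited table.

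Lists of other lineages had few well-measured members. In the trophectoderm list 4 of 14 had an unadjusted p under 0.05, all higher, where 2.42% of all genes did, namely Krt8 and Krt18, the keratins of simple epithelia, and the GATA factors Gata2 and Gata3; their folds in the authors' deposited table were 0.36 ± 0.15, 0.35 ± 0.14, 0.48 ± 0.21 and 2.05 ± 0.83. In the primitive endoderm list 2 of 20 did, also higher, the basement membrane collagens Col4a1 and Col4a2. Gata3 had a mean level of -3.32 log2 CPM. Folds lay below 0 for 3 of the 14, among them Elf5 at -1.01, and for 6 of the 20, among them Gata6 at -0.31. Cdx2 was not among the genes measured at 10 days. The median member levels were 1.26 log2 CPM in the trophectoderm and 0.02 in the primitive endoderm list, and no member of either list was called.

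Across the genes called at 5 days the 10-day folds went weakly with the 5-day folds. The slope given below was close to that over all genes and shrank as trends on length, GC and level were removed. The 10-day fold had the sign of the 5-day fold for 2951 of 4772 genes (61.8%), against 55.0% over all genes in both tables. The slope of the 10-day on the 5-day fold through the origin was 0.065 among called genes and 0.062 over all, weighted by the 10-day precision. The 10-day interval lay wholly on the side of the 5-day change for 159 genes (3.33%) and wholly on the other for 74 (1.55%). With the trend on transcript length and GC removed from both tables the slope was 0.031, the shared sign 56.7%, and the counts 90 and 76. With mean level removed too the slope was 0.006, the shared sign 53.7%, and the counts 78 and 87, a setting chosen after seeing the data.

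The main order among the 10-day folds was by transcript length. Across 11859 genes with a mean log2 CPM of 1 or more, all measured in the same 6 libraries, the Spearman correlation of fold with transcript length was 0.44, and across 11782 genes at 5 days it was 0.21. In 10 classes of equal size, the 1186 shortest transcripts (130 to 1229 nt) had a median fold of -0.13 at 10 days, and 20.1% of them lay above 0. The 1186 longest (6531 nt or more) had a median of 0.13, and 85.0% lay above 0. At 5 days the same outer classes had medians of -0.17 and 0.07. The slope per doubling of length was 0.071 at 10 days and 0.078 at 5 days, so the correlation was the larger at 10 days beside a slope of similar size, with length taking 15.5% and 3.39% of the variance of the folds.

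The trend was present in each of 4 classes of mean level. Its correlation at 10 days was 0.30 for genes between 1 and 3 log2 CPM, 0.44 between 3 and 5, 0.58 between 5 and 7 and 0.60 above that. At 5 days the same classes gave 0.21, 0.19, 0.23 and 0.33. Leaving out every member of a gene list, it was 0.44 over 11018 genes. Unadjusted p-values under 0.05 were held by 6.58% of the shortest and 5.56% of the longest transcripts, the highest shares of the 10 classes, where the other classes lay between 2.45% and 4.89% and all 18712 genes, of any level, at 4.30%. No gene of any class was called.

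Among the parts of the transcript the coding sequence followed the 10-day fold most closely. The correlation was 0.35 with coding length, 0.27 with 3' UTR length and 0.13 with 5' UTR length, and at 5 days 0.11, 0.20 and 0.13. The class of longest coding sequences, 1 of 10 (3480 nt or more), had a median fold of 0.11 and the shortest (489 nt or less) of -0.10. The longest 3' UTRs (3500 nt or more) had a median of 0.09 and the shortest (159 nt or less) of -0.07. For 5' UTRs the outer classes stood at 0.02 and -0.03.

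With all lengths, GC and mean level fitted together over 11378 genes, the 10-day slope per doubling was 0.052 for the coding sequence, 0.023 for the 3' UTR and 0.009 for the 5' UTR. At 5 days it was 0.033, 0.034 and 0.028 over 11342 genes. The fit took 22.3% of the variance of the folds at 10 days and 11.4% at 5 days. How length enters the authors' library preparation or counting was not tested.

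GC content went with the folds only weakly. The correlation of the 10-day fold with the GC fraction of the whole transcript was 0.04, of the 5' UTR 0.10, of the coding sequence 0.09, of the 3' UTR 0.09 and of the cap-proximal stretch 0.13. At 5 days these were 0.03, 0.13, 0.09, 0.02 and 0.15. The outer classes of GC had medians of -0.00 and 0.01 at 10 days. The predicted folding energy per base, which is lower for more structured RNA, had correlations of -0.14 in the 5' UTR and -0.17 in the 3' UTR.

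Upstream AUGs, start codons in the 5' UTR that can draw scanning ribosomes away from the main frame, showed a small gradient. The 5624 transcripts with none had a median 10-day fold of -0.03 and the 1370 with 4 or more of 0.02, and at 5 days the medians were -0.04 and 0.03. Median transcript length rose over the same classes from 2725 to 3714 nt. In the joint fit the slope on the log2 number of upstream AUGs was -0.001 at 10 days and 0.012 at 5 days.

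**Figure D5:**
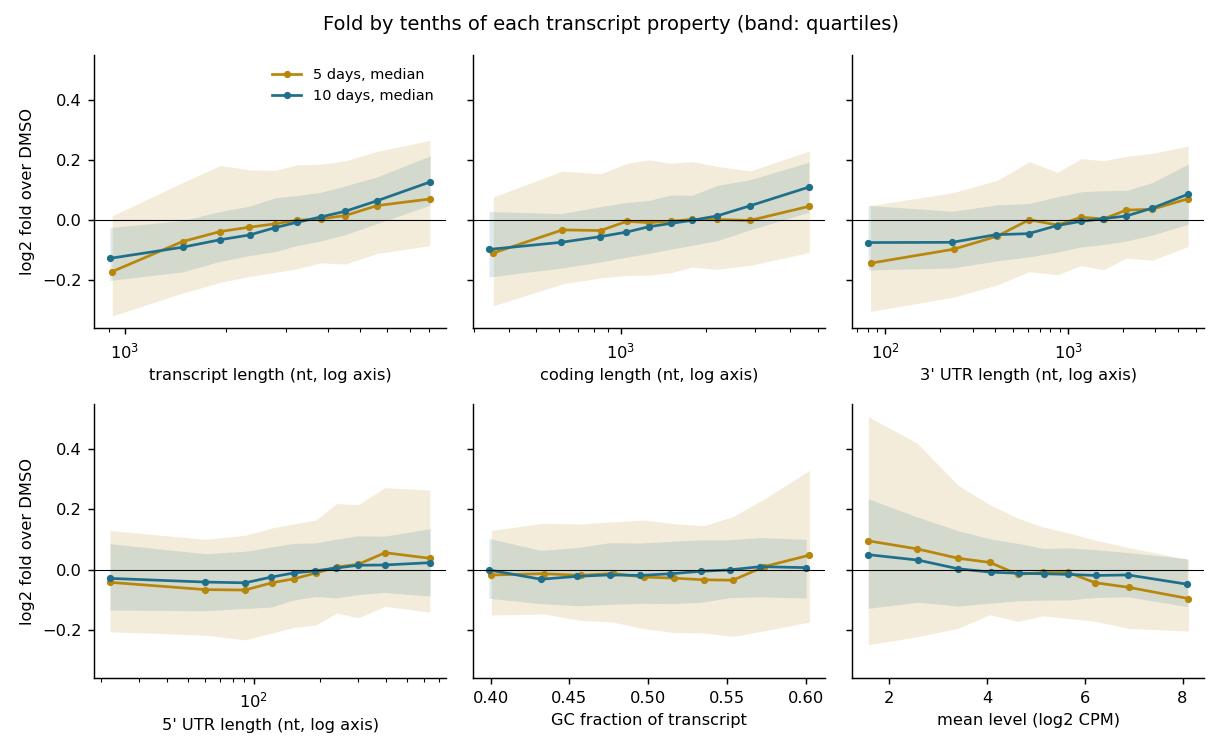
Median log2 fold over DMSO, with quartiles as bands, in 10 classes of equal gene number by transcript length, coding length, 3' UTR length, 5' UTR length, GC fraction and mean level, at 5 days (gold) and 10 days (blue). At 10 days the median rises from -0.13 to 0.13 along transcript length and stays near 0 along GC.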

How the data were processed

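The members of this comparison and the gene lists were chosen with earlier results of these data known. Poly(A) RNA, extracted with Trizol, was sequenced from TruSeq libraries, per the labels. The authors deposited 1 limma result table per time, with the log2 fold, the mean log2 CPM, a moderated t and log-odds (scores), the p-value and its BH adjusted value, per the file headers. They also deposited transcript lengths, GC as a fraction, upstream AUG counts and folding energies as scores. The aligner, the counting program, the build the authors mapped to and limma's version are not stated by the labels or headers (not given in the sources used here). Because the tables hold no values of single libraries, the planned count test could not be used and the authors' limma results were taken as they stand.

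Computed from them (Python 3.11.15, pandas 2.3.3, numpy 2.4.6, scipy 1.17.1, matplotlib 3.10.9) were the SE as fold divided by t, 95% intervals with degrees of freedom solved from t and p, a z test of the difference between the times (the tables share no library), list medians, and linear trends. The depth was read from the level shared by 478 genes at 10 days and 552 at 5 days, taken as 1 read in 1 library with a prior count of 0.5, a form that the headers do not state. At each time 27 symbols changed to dates by a spreadsheet were restored from gene IDs. Of the 10-day transcripts 97.6% were in GENCODE M21. The calculations were tested on simulated data. Genes named are the tagged pair, the 10 smallest p-values at 10 days, the 10 largest rises and 10 largest falls at 5 days (mean log2 CPM of 1 or more), the 3 list members with the largest 5-day t, and genes whose interval lay beyond 0.5 of the 5-day fold, and 1 gene among the rises is not reported here. Predicted-gene and clone names were left out of the p-value, rise and fall rules. Alternatives changed the threshold, margin, level filter, centring, weights and trend removal.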

Additional observations from a re-analysis of the deposited data

Results flagged for a closer look

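The results here are genes whose fold differed between 5 and 10 days by the z test, 1887 in all. The tables hold no values of single libraries, so libraries were not compared with each other. Values are the 10-day minus the 5-day log2 fold. The genes named were chosen by their fold, t or p-value at 5 or 10 days, which the difference uses again.

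Genes without a call at either time, chosen for their small 10-day p-values, were Pcdhgc3 (0.69), Nol4l (0.70), Acta2 (0.94) and Zfp87 (-0.67). Lefty2, chosen by the same rule, had folds of opposite sign and a difference of -1.29, and its paralogue Lefty1 had -1.55.

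Among the largest rises of day 5 the differences were -4.83 for Fgf5, -2.95 for Sema6a, -2.61 for Zfp608, -3.04 for Car4, -2.17 for Mmp25, -2.70 for Enpp2, -2.23 for Pou3f1 and -1.44 for Kcnj3. Among the largest falls they were 2.09 for Slc11a1, 2.03 for Inhbb, 1.62 for Serpinb6c, 1.88 for Sept1, 1.66 for Mapt, 1.70 for Tbx3, 1.55 for Mras, 1.48 for Lgals3, 1.47 for Gna14 and 1.43 for Myo1f.

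Naive genes differed by 1.33 (Tfcp2l1), 1.17 (Jam2) and 0.62 (Nanog), and formative genes by -1.80 (Cldn6) and -2.24 (Otx2). The 2-cell-like genes Zscan4f, Zscan4a and Zscan4c differed by 0.95, 0.83 and 0.75. The p53 targets Phlda3, Trp53inp1 and Plk2 differed by -1.36, -0.81 and -1.09, and the interferon genes Irf1, Bst2 and Tap1 by -0.93, -0.75 and -1.79.

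Of metabolic genes, Slc7a1 differed by 0.78, Cth by 0.43, Atp5g1 by 0.48, Cox5a by 0.37, mt-Nd3 by 0.63 and mt-Nd2 by 0.61. The replication genes Ccnd3, Orc1 and Mcm6 differed by 0.60, 0.47 and 0.32, and the feeder-list genes Vim, Mmp2 and Ctgf by 0.73, -1.01 and -1.04.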

How the results depend on the processing

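No gene was called at 10 days under any of the 6 alternatives run (adjusted p under 0.10, level filters of 1 and 3, centring, both trend removals), and the smallest adjusted p ranged from 0.637 to 0.879. Genes called at 5 days and bounded inside the margin at 10 days, 2983 in the report, numbered 478 with a margin of 0.25 and 99 when only 5-day folds of 1 or more (1019 genes) were kept. Differences between the times numbered 1257 with a t in place of the z, and calls had 0.5 of the 5-day folds persisted 33. The slope on the 5-day fold, 0.065, was 0.031 without the length and GC trend, 0.0063 without the level trend as well and 0.057 unweighted, and the shared sign was 56.7% and 53.7% after those removals. With levels of 3 or more the correlations of the 10-day fold with transcript, coding and 3' UTR length were 0.51, 0.42 and 0.32. Without a filter they were 0.22, 0.17 and 0.14, that with 5' UTR length 0.069 and that with GC 0.014, and with t in place of the fold that with GC was 0.061. The cause was not tested.

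Of 322 gene and setting pairs for the named differences, 310 kept their call and 12, in 7 genes (Acta2, Kcnj3, Cth, mt-Nd3, mt-Nd2, Cox5a and Mcm6), lost it, and 0 changed direction. Of 198 uncalled 10-day folds under centring or trend removal, 21 had another sign. Medians of 4 of 33 lists moved by more than the median SE of their members. No paired analysis was possible because the deposited tables hold no values of single libraries. For that reason leaving out each replicate and DESeq2 were planned and not run. Below a mean log2 CPM of 0 no gene could be bounded inside ±0.5.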

Other observations

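Lists not described above had no called member at 10 days. The widest of their medians came with the largest SEs. The primitive streak and mesendoderm list stood at 0.44 with 12 of 16 folds above 0 and a median SE of 0.67, and 1 member, Wnt8a, a Wnt ligand, had an unadjusted p under 0.05. The replication-dependent histones stood at -0.19 with 22 of 31 folds below 0 and a median SE of 0.42, and their near-identical copies may share reads. In the neuroectoderm list the median was 0.08, and 2 of 20 had an unadjusted p under 0.05, both higher, where 2.42% of all genes did. Of the actin and focal adhesion list 4 of 34 did, all higher, with a median of 0.06.

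Translation factors had a median of -0.09, with 42 of 47 folds below 0. All 23 called at 5 days had been inside ±0.5 then and were bounded at 10 days. The share was 62.5% over all called genes and 95.2% over those at 5 log2 CPM or more, with a list median level of 8.24. The interval of 1 of the 23 excluded 0.5 of the 5-day fold. Eif4b, an initiation factor that aids the helicase eIF4A, had a fold of -0.36 ± 0.04 at 5 days and -0.00 ± 0.08 at 10 days in the authors' deposited tables. In the list of ribosome collision and rescue, the process RACK1 takes part in, 10 of 11 genes called at 5 days were bounded. The share was 62.5% over all called genes and 95.2% over those at 5 log2 CPM or more, with a list median level of 6.29. Of the 11, 9 had been inside ±0.5 before, and the interval of 3 excluded 0.5 of the 5-day fold. Zc3h12a, an RNase of inflammatory mRNAs, had a fold of -0.91 ± 0.14 and then 0.00 ± 0.18 in the authors' deposited tables, and Pelo, a rescue factor of stalled ribosomes, 0.47 ± 0.08 and then -0.03 ± 0.15. Map3k20, the collision-sensing kinase ZAK, had 1.12 ± 0.18 and then -0.16 ± 0.21 there.

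Glycolysis and hypoxia genes had a median of -0.07 with 27 of 35 below 0, NRF2 targets -0.06 with 16 of 24 below 0, cytosolic heat shock genes -0.07 with 13 of 20 below 0, and cholesterol synthesis genes -0.02. Hspb1, a small heat shock protein, had a fold of -0.71 ± 0.05 and then -0.09 ± 0.10 in the authors' deposited tables. Nqo1, a quinone reductase induced by NRF2, had -0.98 ± 0.12 and then 0.02 ± 0.16 there. ERK immediate early and feedback genes had a median of 0.03, and Jun, an AP-1 subunit, had 1.36 ± 0.14 and then 0.07 ± 0.21 there. Of the 16 imprinted genes called at 5 days 8 were bounded, against 62.5% of all called genes. Snrpn, an imprinted splicing-factor gene, had 0.62 ± 0.08 and then -0.21 ± 0.11 in the authors' deposited tables.

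Among 11859 genes with a mean log2 CPM of 1 or more, 7 had a 10-day fold of 1 or more in either direction, against 388 at 5 days. Named after their values were seen, the largest of these with a symbol that is not a predicted gene were Nnt, a mitochondrial transhydrogenase, at 1.98 ± 1.34 and Zfp708, a zinc-finger gene, at -1.54 ± 0.44 in the authors' deposited table.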
